A study of Mus musculus with 13 samples.

Results

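The genes described here are 39 mouse genes whose products remove peroxides and superoxide or use, make or recycle glutathione. They were chosen by symbol for this function from the 55642 genes of a count table of RNAseq libraries. Of the 39 genes, 36 had enough reads to be tested and 3 did not.

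The libraries came from C2C12 cells, an established mouse line of skeletal muscle myoblasts that can be made to differentiate. All cells had received siRNAs by reverse transfection, either nontargeting siRNAs (control KD) or siRNAs against the RNA-binding protein YBX3 (YBX3 KD), and all were collected 48 h later. At 24 h the medium either stayed as it was, with fetal bovine serum (0 day, proliferating myoblasts), or was exchanged for medium with 10% horse serum (1 day, differentiating myoblasts). Proliferating myoblasts gave 4 libraries with each siRNA, named by replicate letters from A to D. Differentiating myoblasts gave 2 with control KD, letters C and D, and 3 with YBX3 KD, letters B, C and D. The labels call them biological replicates of 1 cell line and do not say how the cultures were separated, so the p-values measure the spread between these samples only.

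Reactive oxygen species arise as by-products of respiration, and cells clear them in relays. Superoxide dismutases turn superoxide into hydrogen peroxide, and catalase, glutathione peroxidases and peroxiredoxins reduce the peroxide to water. The peroxidases are recharged by glutathione or by thioredoxin, which glutathione reductase and the thioredoxin reductases restore with NADPH, while glutathione transferases join glutathione to lipids, drugs and other reactive compounds. Many of these genes are classical targets of the transcription factor NRF2 (gene Nfe2l2), which binds antioxidant response elements in their promoters, and in muscle they buffer the oxidants made by contracting and differentiating cells.

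The libraries held from 33451547 to 71811371 counts each, and levels are given as counts per 1e+06 counts of a library (CPM) after TMM scaling. Ybx3 itself stood at 265 to 347 CPM in the 6 control KD libraries and at 28.7 to 71.5 CPM in the 7 YBX3 KD libraries, with no overlap. The 6 myoblast markers examined were all detected, from Myod1, low at 0.601 to 3.32 CPM, to Chrna1 at 224 to 386 CPM. The markers of other cell types summed to 8.86 to 24.5 CPM, most of it Tubb3. Replicate D stood apart from replicates A to C for 4351 genes that were higher and 4075 that were lower at an adjusted p under 0.05, members included. The main results over both days and the main day effects are also given without replicate D. Fold changes within a day are given only with it. The 4 libraries of replicate D also differed among themselves in an order that crossed siRNA and day, described at the end, and their labels were used as given. In bulk RNA, fewer cells with a transcript and less transcript per cell cannot be told apart.

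The promoters of the members were read from RefSeq (GRCm38.p6), whose table held 44 windows of 250 bases before and 50 bases after a transcription start for 34 of the 39 members. Prdx6, Gsr, Sod3, Gsta4 and Gstt2 had no entry. The core of the antioxidant response element, TGACNNNGC, was searched on both strands. It lay in the windows of 5 members (14.7% of those matched), against 14.0% of all 27025 genes with a window. The stretch of each is shown because they include Sod1 and Prdx1, which are among the 5 members that were lower in YBX3 KD once the replicate letter was taken into account, and Gstm5 and Ggct, which differed between replicate D and the others. Each has 10 bases on either side of the motif, which is in capitals and reads on the gene's strand in the Gstm5 stretch and on the opposite strand in the others. Ggct held another match on its own strand from base 6 after the start, which is not printed.
Sod1: gccaaggtggGCGTGGTCAgactcaggcc
Prdx1: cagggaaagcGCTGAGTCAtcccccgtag
Gstm5: caccgcccacTGACCACGCggagggcggg
Ggct: caatagaaaaGCGACGTCAgtgggcggga
Mgst1: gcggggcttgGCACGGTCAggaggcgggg
The Sod1 stretch is chr16:90220696-90220724 (plus strand), and its motif starts 56 bases before the RefSeq start site. The Prdx1 stretch is chr4:116685456-116685484 (plus strand), with the motif 133 bases before the start. The stretches of Gstm5 (chr3:107895802-107895830, plus strand), Ggct (chr6:54993023-54993051, minus strand) and Mgst1 (chr6:138140461-138140489, plus strand) hold the motif 42, 174 and 56 bases before the start. A match describes the letters in the window and is not evidence of binding.

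Levels of different members are compared only per length, as the median CPM over the 13 libraries divided by the kilobases of the canonical transcript. On this scale the tested members spanned from 0.331 to 451 CPM per kilobase. Txn1, the cytosolic thioredoxin that recharges peroxiredoxins, was the most abundant at 451 CPM per kilobase, and its CPM ran from 241 to 445 with a median of 356. Gstp1, the pi-class glutathione transferase, followed at 356 CPM per kilobase, with 280 to 347 CPM and a median of 322. Gpx4, the peroxidase that reduces lipid peroxides in membranes, reached 275 CPM per kilobase, with 225 to 435 CPM and a median of 264.

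Prdx1, the main cytosolic peroxiredoxin, led its family at 158 CPM per kilobase, with 372 to 505 CPM and a median of 423. Gsr, glutathione reductase, led the genes of glutathione synthesis, recycling and breakdown at 40.3 CPM per kilobase. Sod1, the copper-zinc superoxide dismutase of the cytosol, stood at 39.8 CPM per kilobase, close to catalase (Cat) at 35.01, and their ranges over the libraries overlapped on this scale. Among the glutaredoxins Glrx3, which works in iron-sulfur cluster handling, was highest at 33.7 CPM per kilobase, with 101 to 139 CPM and a median of 119. Mgst3 led the microsomal transferases at 18.1 CPM per kilobase, with 20.1 to 30.9 CPM and a median of 25.6. The order depends on the length used. Sod1 ranked 17 of 39 per kilobase of its canonical transcript, which the annotation gives as 5315 bases, and 4 per kilobase of coding sequence, where Glrx3 (106 CPM) and Glrx5 (101 CPM) were also close.

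At the low end, Gstt1, Gstt2 and Ggct had 0.585, 0.331 and 0.712 CPM per kilobase. The untested members were Gpx7, an endoplasmic reticulum peroxidase, Gpx3, the secreted peroxidase, and Gstk1, a mitochondrial transferase. Gpx7 had a count of 0 in all 13 libraries, which allows up to 0.0417 to 0.0926 CPM per library (3 counts). Gpx3 had at most 5 counts and Gstk1 at most 13 counts in a library.

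**Figure D1:**
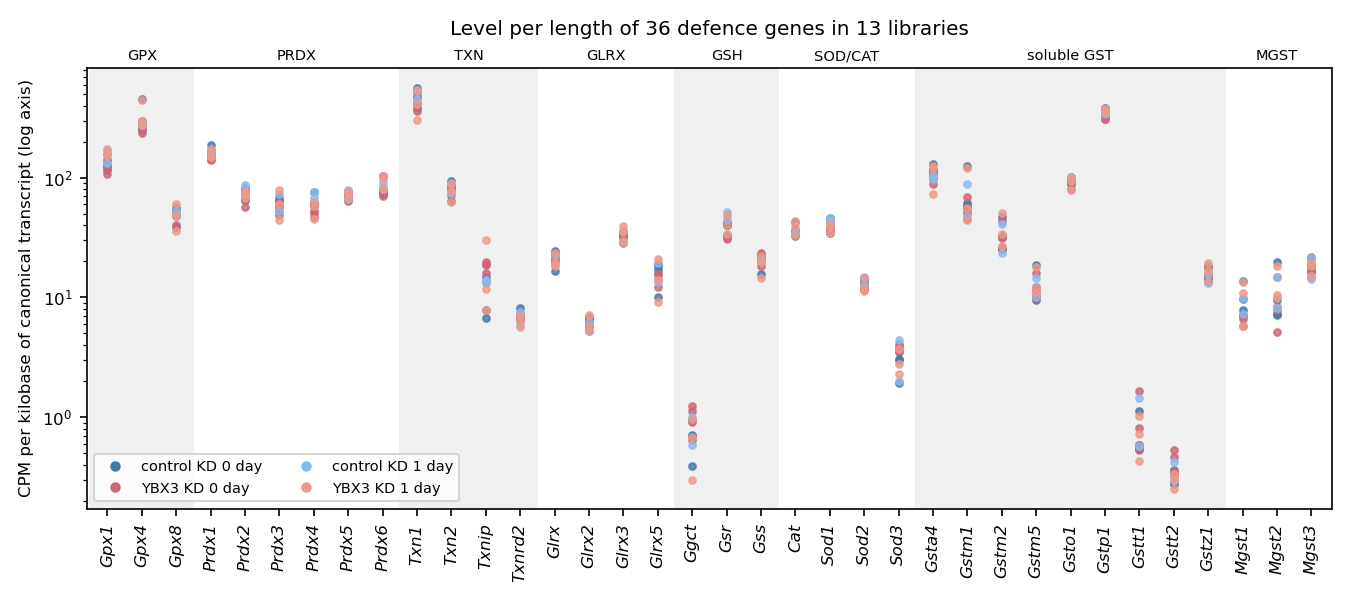
Level of each tested member, in CPM per kilobase of canonical transcript on a log axis, with 1 point per library coloured by group and the genes ordered by role. Txn1, Gstp1 and Gpx4 stand highest, at medians of 451, 356 and 275 CPM per kilobase, and Gstt2 lowest at 0.331.

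The first question was whether depletion of YBX3 altered these transcripts over both days. Most members had estimates slightly below 0 in YBX3 KD, and none passed a threshold. Of the 36 tested, 26 had estimates below 0 and 10 above, with a median log2 fold change of -0.06 against 0.00 over all 16848 genes tested. No member passed the study's thresholds (absolute fold change above 1.3 and adjusted p under 0.001) by the quasi-likelihood test of edgeR (adjusted after Benjamini and Hochberg), which 0.113% of all genes passed. None had an adjusted p under 0.05, which 2.34% of all genes had. At an unadjusted p under 0.05 there were 3 members (Sod1, Gsr and Prdx4, all below 0), against 15.6% of all genes. DESeq2 put 3 members at an adjusted p under 0.05, against 6.93% of all genes, and limma-voom 6 members (5 lower and Sod3 higher), against 18.3%. These shares of members are close to those of all genes, and neither tool placed a member past the study's thresholds. In no member did all YBX3 KD libraries lie below all control KD libraries, as 1.08% of all genes did.

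Libraries of the same replicate letter deviated together, so the letter was used to pair the samples. With the letter as a term in the fit, 5 of the 36 members were lower at an adjusted p under 0.05, against 4.38% of all genes, and 0 were higher, against 5.4%. These were Sod1, Gsr, Prdx4, Txn1 and Prdx1, none of them past the fold threshold of 1.3. DESeq2 with the same term, a fit added after seeing the data, also gave each of the 5 an adjusted p under 0.05. That fit placed 6 members and 2975 of all genes there, so the share of members was close to that of all genes. By letter and day there were 6 pairs of YBX3 KD and control KD libraries, and 7 members were lower in all 6 (Prdx1, Prdx3, Prdx4, Txn1, Gsr, Sod1 and Gsto1), against 7.97% of all genes. Without the 4 libraries of replicate D, 21 members had estimates below 0 and 15 above, and 1 member, Gsr, was lower at an adjusted p under 0.05, against 6.68% of all genes.

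**Figure D2:**
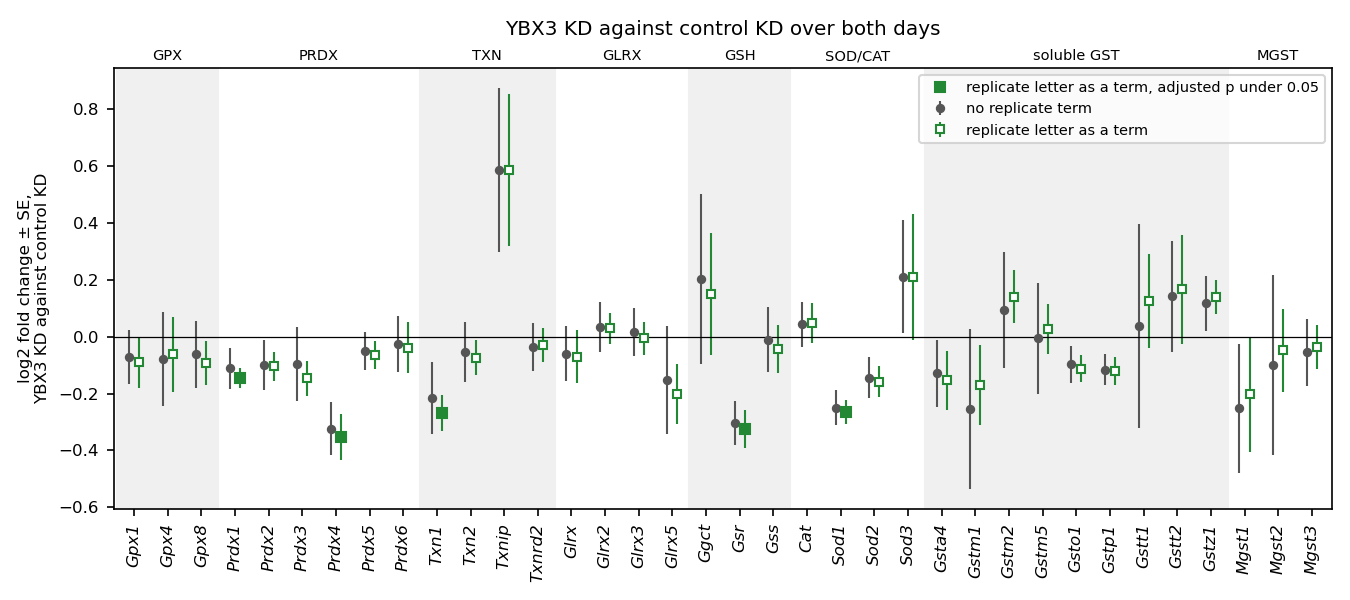
Log2 fold change of YBX3 KD against control KD over both days for the 36 tested members, with standard errors, from the fit without (grey circles) and with (green squares) the replicate letter as a term. Filled squares mark Prdx1, Prdx4, Txn1, Gsr and Sod1, at -0.14 to -0.35, the members with an adjusted p under 0.05 when the letter is a term, and Txnip has the highest estimate with a wide error.

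Gsr (chromosome 8, 34142551 to 34188192 on GRCm39), which returns oxidized glutathione to its reduced form with NADPH, was lower in YBX3 KD in all 6 pairs. At 0 day it stood at 108, 108, 109 and 111 CPM in control KD and at 86.3, 86.2, 88.8 and 82.9 CPM in YBX3 KD (A to D), so the groups were far apart relative to their spread. At 1 day it stood at 137 and 121 CPM in control KD (C and D) and at 130, 108 and 89.7 CPM in YBX3 KD (B to D). In total, 6 of the 7 YBX3 KD libraries lay below every control KD library, the exception being replicate B at 1 day, which has no control partner. The 6 pairs differed by -0.43 to -0.30 on the log2 scale. The log2 fold change over both days was -0.30 (SE 0.08, adjusted p = 0.0618), and -0.32 with the letter as a term (adjusted p = 0.0191). When single libraries were dropped from the fit lacking the letter, the estimate ranged from -0.36 to -0.27. It was weakest when YBX3 KD replicate D at 1 day was dropped. In these fits the adjusted p fell under 0.05, to 0.0125, only when the exception named above was dropped. Dropping all of replicate D gave Gsr a log2 fold change of -0.28. The other members of its group, Gss, which makes glutathione, and Ggct, which breaks down its gamma-glutamyl products, had log2 fold changes of -0.01 and 0.20 (adjusted p = 0.978 and 0.789).

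Sod1 (chromosome 16, 90017408 to 90027657) had the smallest p of the members. At 0 day it stood at 204, 245, 223 and 242 CPM in control KD and at 184, 205, 182 and 189 CPM in YBX3 KD. At 1 day the control KD libraries had 233 and 244 CPM and the YBX3 KD libraries 218, 183 and 212 CPM. Within a day the groups overlapped only at 0 day, where YBX3 KD replicate B lay just above control KD replicate A, and each YBX3 KD library lay below its own partner. The means were 232 ± 16.1 (SD, n = 6) and 196 ± 14.97 CPM (n = 7). The log2 fold change was -0.26 with the letter as a term (SE 0.04, adjusted p = 0.00645). Without that term it was -0.25 (SE 0.06, adjusted p = 0.0618), and without replicate D -0.23 (adjusted p = 0.0709). Sod2, the manganese dismutase of the mitochondrial matrix, was at -0.14 and catalase (Cat) at 0.04, with adjusted p of 0.381 and 0.833.

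All 6 peroxiredoxins had estimates below 0, from -0.32 to -0.03, with a median of -0.10. Without replicate D, Prdx5 (0.0011) and Prdx6 (0.0092) lay just above 0, and at 1 day 4 of the 6 were below 0. Prdx4 (chromosome X, 154106813 to 154123750), the peroxiredoxin of the endoplasmic reticulum, was lowest among them. Its control KD libraries had 67.9, 84.8, 65.3 and 65.9 CPM at 0 day and 75.1 and 84.7 CPM at 1 day, and its YBX3 KD libraries 58.1, 65.5, 52.1 and 56.5 CPM at 0 day and 64.8, 69.3 and 50.2 CPM at 1 day. In 5 of the 7 YBX3 KD libraries it lay below every control KD library. The log2 fold change was -0.32 (SE 0.09, adjusted p = 0.0974), -0.35 with the letter as a term (adjusted p = 0.0281) and -0.27 without replicate D (adjusted p = 0.0887).

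Prdx1 (chromosome 4, 116532123 to 116558398) differed little but evenly. In control KD it had 409 CPM at the lowest, 432 at the median and 505 at the highest, and in YBX3 KD 372, 396 and 463 CPM. The ranges overlapped, yet in each pair the YBX3 KD library was lower, by -0.17 to -0.09 on the log2 scale. The log2 fold change was -0.11 (SE 0.07, adjusted p = 0.4995), and -0.14 with the letter as a term (SE 0.04, adjusted p = 0.0341). Without replicate D it was -0.12. Prdx3, the mitochondrial peroxiredoxin, was also lower in all 6 pairs, by -0.27 to -0.11, with a log2 fold change of -0.10 (adjusted p = 0.764, and 0.152 with the letter). Prdx2, Prdx5 and Prdx6 lay between -0.10 and -0.03.

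Txn1 (chromosome 4, 57934208 to 57956424) had 304 CPM at the lowest, 394 at the median and 445 at the highest in control KD, and 241, 329 and 430 CPM in YBX3 KD. Only 2 YBX3 KD libraries lay below all controls, both of replicate D. In control KD, replicate D had 304 CPM at 0 day and 356 CPM at 1 day, the latter within the 329 to 445 CPM of replicates A to C. The 6 pairs differed by -0.56 to -0.08 on the log2 scale. The log2 fold change was -0.22 (SE 0.13, adjusted p = 0.456), and -0.27 with the letter as a term (SE 0.06, adjusted p = 0.0292). Without replicate D it was -0.22. Txn2 and Txnrd2, the thioredoxin and thioredoxin reductase of mitochondria, were at -0.05 and -0.04 (adjusted p = 0.847 and 0.874).

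**Figure D3:**
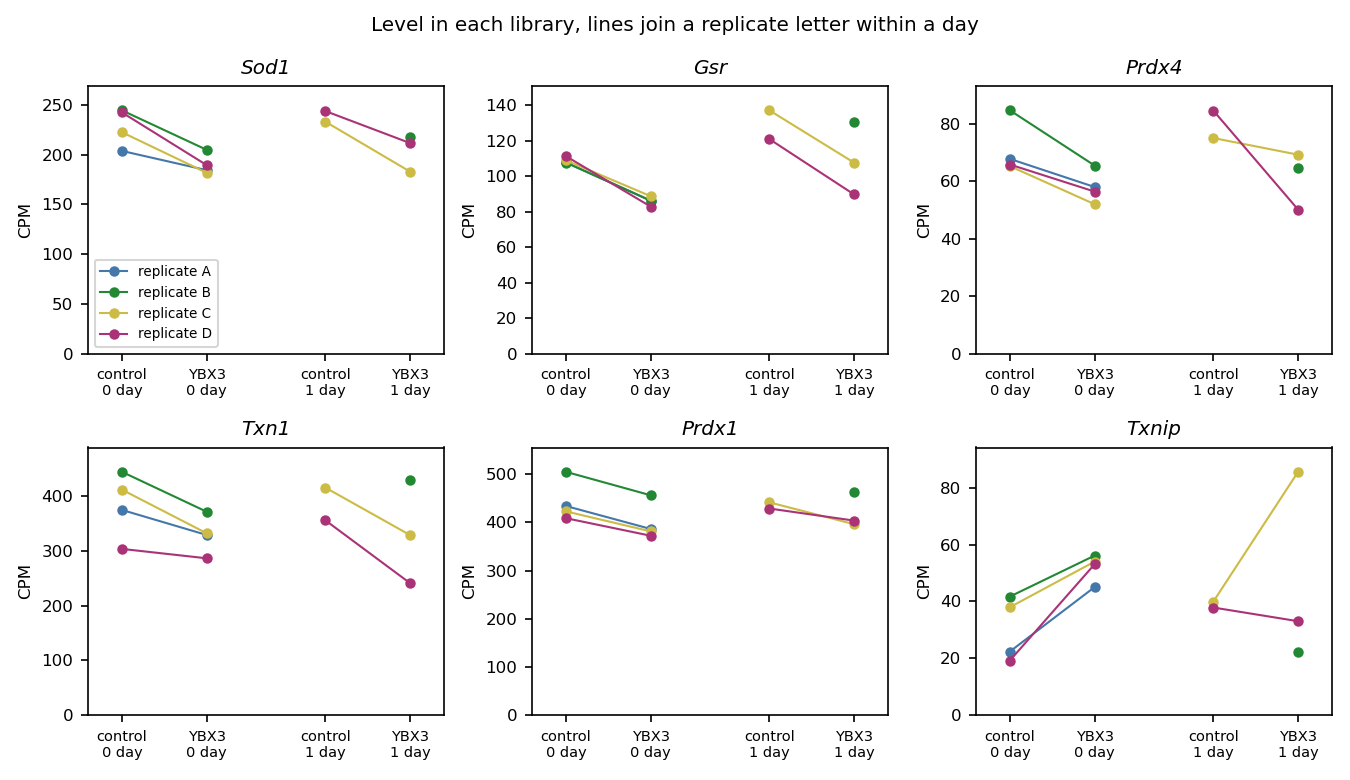
CPM of Sod1, Gsr, Prdx4, Txn1, Prdx1 and Txnip in each library by siRNA and day, with points coloured by replicate letter and lines joining the control KD and YBX3 KD libraries of a letter within a day. For the first 5 genes all 6 lines slope down from control KD to YBX3 KD, and for Txnip 5 of 6 slope up.

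The members with the smallest p among those above 0 were Txnip, Gstz1 and Sod3, and none passed a threshold in edgeR's test. Txnip encodes a protein that binds and restrains thioredoxin and is known to respond to glucose. It had 22.4, 41.7, 38.0 and 19.2 CPM in control KD and 45.1, 56.2, 54.0 and 53.1 CPM in YBX3 KD at 0 day, with no overlap, a separation seen upward in 4.83% of all genes. At 1 day it had 39.9 and 37.9 CPM in control KD and 22.1, 85.7 and 33.0 CPM in YBX3 KD, the widest range of its 4 groups. Its log2 fold change over both days was 0.59 (SE 0.29, adjusted p = 0.353), and 0.36 without YBX3 KD replicate C at 1 day. Txnip was also the most variable member, with an SD of 0.60 of log2 CPM over the 13 libraries against a median of 0.21 over the members and 0.23 over all genes.

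Gstz1, which handles tyrosine breakdown, ran from 29.6 to 40.4 CPM in control KD and from 30.3 to 42.9 CPM after YBX3 depletion, a log2 fold change of 0.12 (SE 0.10, adjusted p = 0.609). Sod3, the secreted dismutase, had 11.9, 13.7, 12.1 and 7.56 CPM in control KD and 15.997, 14.9, 14.0 and 15.5 CPM in YBX3 KD at 0 day, again without overlap. At 1 day control KD had 7.87 and 17.3 CPM and YBX3 KD 10.9, 14.6 and 8.98 CPM, and the order of the siRNAs was opposite in replicates C and D. Its log2 fold change was 0.21 (SE 0.20, adjusted p = 0.662), but 0.45 without control KD replicate D at 1 day and 0.10 without control KD replicate D at 0 day. Without any library of replicate D it was 0.38. Limma-voom with all libraries gave Sod3 an adjusted p of 0.0391.

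The 3 tested glutathione peroxidases stayed close to 0, from -0.08 to -0.06. The 4 glutaredoxins ran from -0.15 to 0.03, and the 9 tested soluble transferases from -0.25 (Gstm1) to 0.14 (Gstt2) with 5 of 9 below 0. All 3 microsomal transferases were below 0, from -0.25 to -0.06. Gsto1 was lower in all 6 pairs by a small margin, -0.26 to -0.02, with a log2 fold change of -0.10 (adjusted p = 0.523).

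Within proliferating myoblasts, 27 members had estimates below 0 and 9 above, with a median of -0.09. None passed the study's thresholds, as 0.0297% of all genes did, or an adjusted p under 0.05, as 0.427% did, and 4 had an unadjusted p under 0.05 (Prdx4, Gsr, Sod1 and Gstp1, all below 0), as did 11% of all genes. With the letter as a term, Sod1 was lower at 0 day with a log2 fold change of -0.26 and an adjusted p of 0.0425, against 1% of all genes lower. DESeq2 gave 2 members an adjusted p under 0.05, against 3.03% of all genes, and limma-voom 3 members, against 10.6%. The 4 YBX3 KD libraries all lay below the 4 control KD libraries for Gsr, Gsta4 and Gstp1, a separation found in 4.27% of all genes. Gstp1 had 324, 340, 323 and 347 CPM in control KD and 281, 310, 280 and 294 CPM in YBX3 KD at 0 day, a log2 fold change of -0.19 (SE 0.06, adjusted p = 0.244). Reads of Gstp1 and its near copy Gstp2 could have been split between them, so this value is uncertain. The summed CPM of the 6 myoblast markers was 564 to 668 in control KD and 716 to 812 in YBX3 KD at 0 day, and its part in these results was not tested.

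Within differentiating myoblasts, 20 members had estimates below 0 and 16 above, with a median of -0.03. None passed the study's thresholds, which 0% of all genes did, or an adjusted p under 0.05, which 0.0712% did, and 1 had an unadjusted p under 0.05 (Prdx4, below 0), as did 7.79% of all genes. All 3 YBX3 KD libraries lay below both control KD libraries for Prdx4 and Sod1, a separation seen in 9.4% of all genes. The log2 fold changes of Gsr, Sod1 and Prdx4 were -0.34, -0.26 and -0.29 at 0 day and -0.24, -0.22 and -0.38 at 1 day. The test of the difference between days passed in 0 of the 36 members at either threshold, as in 0% of all genes, and without the letter no member had an unadjusted p under 0.05 there, against 2.64% of all genes. The nearest was Gstp1, with a difference of 0.21 (SE 0.10, adjusted p = 1.00). With the letter as a term 6 members had an unadjusted p under 0.05 (Ggct, Gstp1, Gstm1, Gpx4, Gss and Mgst1), against 11% of all genes, and the nearest was Ggct, with a difference of -1.07 (SE 0.30, adjusted p = 0.433). The early differentiation markers summed to 35.3 to 122 CPM over all groups and overlapped between the days. Tnnt2 ran from 24.4 to 90.5 CPM and Acta1 from 0.549 to 34.2 CPM. Every other marker of this set stayed at or below 8.97 CPM (Tnnt1), with Myog at 0.0523 to 3.46 CPM. The myoblast markers summed to 532 to 598 CPM in control KD and 593 to 686 CPM in YBX3 KD at 1 day. The part of either set of markers in the result was not tested.

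The second question was what 1 day in differentiation medium did to the members under both siRNAs. The estimates leaned upward, with 26 above 0 and 10 below and a median of 0.05 against 0.00 over all genes. In edgeR's test no member, and 0% of all genes, passed either threshold over both siRNAs, and the same 0% held within control KD and within YBX3 KD. At an unadjusted p under 0.05 there were 2 members over both siRNAs (Gsr and Gpx1, both above 0), against 2.83% of all genes. Within control KD there were 0, against 1.44%, and within YBX3 KD 4 (Gpx1, Gsr, Gstp1 and Prdx6, all above 0), against 4.28%. Limma-voom put 1 member at an adjusted p under 0.05 over both siRNAs, against 0.196% of all genes, and DESeq2 put 0, against 0.0119%.

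The highest estimates with small p were Gsr, Gpx1 and Prdx6, a reductase and 2 cytosolic peroxidases. Gpx1, the main cytosolic glutathione peroxidase (chromosome 9, 108216102 to 108217546), had 114 CPM at the lowest, 134 at the median and 169 at the highest over the 8 libraries at 0 day. At 1 day it had 183 and 141 CPM in control KD and 185, 168 and 163 CPM in YBX3 KD. The days overlapped, through the 2 control KD libraries of replicate D, where the order was reversed. The log2 fold change was 0.31 (SE 0.10, adjusted p = 1.00). For Gsr it was 0.30 (SE 0.08, adjusted p = 1.00), and for Prdx6 0.19 (SE 0.10, adjusted p = 1.00), from 188 to 278 CPM at 0 day and from 215 to 276 CPM at 1 day.

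These day effects rested on which replicates were counted. Without the 4 libraries of replicate D, which leaves 9 libraries and 1 control KD library at 1 day, Gsr rose by 0.41 (adjusted p = 0.0178) and Gpx1 rose by 0.45 (adjusted p = 0.0336). These were 2 of 36 members, against 0.428% of all genes that were higher in that fit. The lone control KD library is assumed there to vary like the other groups. All 6 peroxiredoxins (0.03 to 0.19) and all 3 tested glutathione peroxidases (0.05 to 0.31) had estimates above 0 in the fit with all libraries. Within control KD this held for 4 of 6 and 2 of 3, with Gpx4 at -0.18, and without replicate D Prdx5 was at -0.01. Txnrd2, Gstt2 and Sod3 had the smallest p among the members below 0, with log2 fold changes of -0.11, -0.20 and -0.15 (adjusted p = 1.00 for each). Txnrd2 ran from 12.6 to 15.7 CPM at 0 day and from 11.0 to 14.5 CPM at 1 day, and Gstt2 from 0.711 to 1.36 and from 0.653 to 1.097 CPM.

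**Figure D4:**
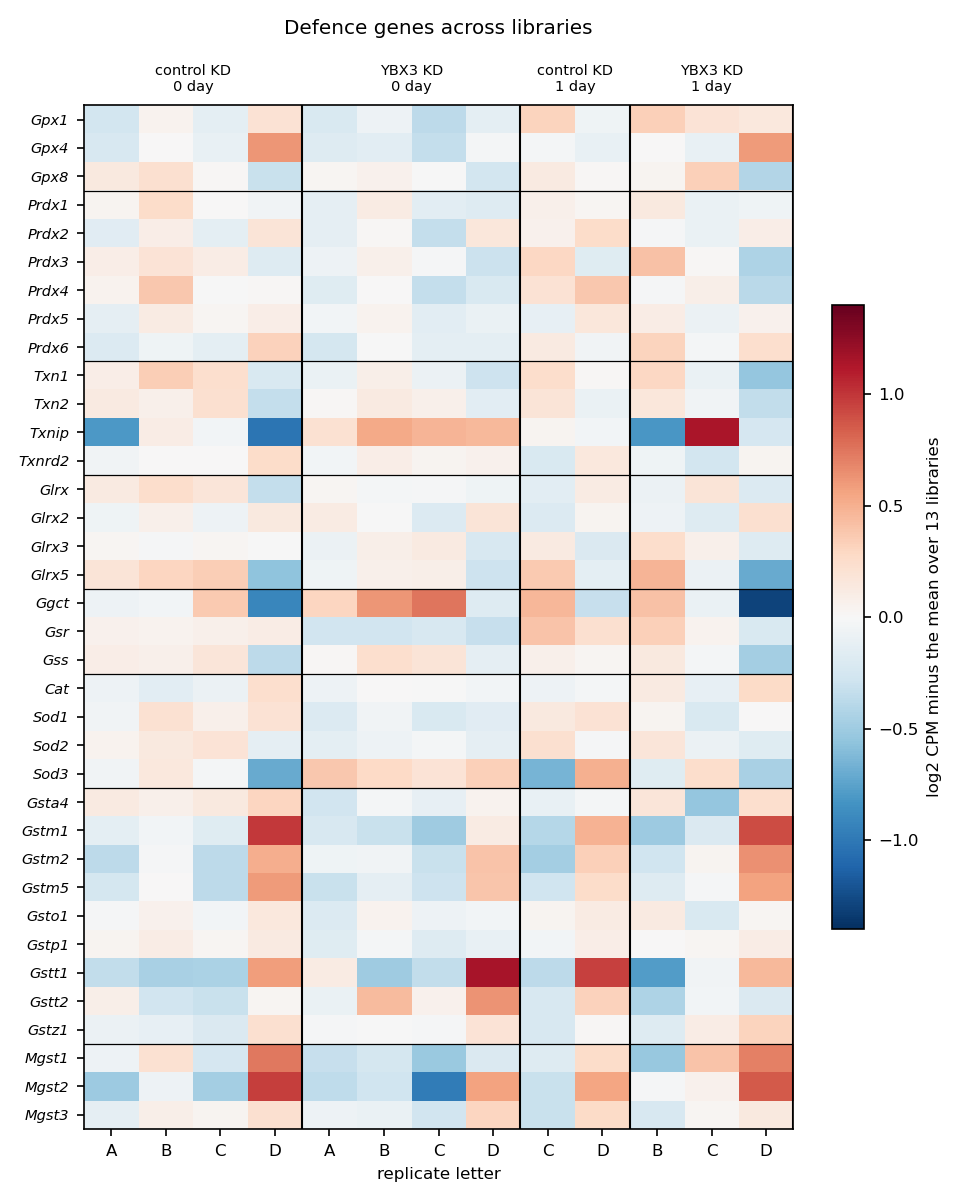
Log2 CPM of each tested member minus its mean over the 13 libraries, by group and replicate letter, with lines between roles. Replicate D has the strongest colours, raised in the rows of Gstm1, Gstm2, Gstm5, Gstt1 and Mgst2 and lowered in the rows of Ggct and Glrx5.

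The largest fitted differences among the members came with the replicate letter. A term for replicate D against replicates A to C was tested after these values had been seen. All 9 tested soluble transferases and all 3 microsomal ones among the members had estimates above 0 in replicate D, as did 50.8% of all genes, with medians of 0.30 and 0.52 on the log2 scale. Of 9 tested transferases outside the list, 3 were higher at an adjusted p under 0.05 (Gstm7, Gsto2 and Gstt3) and 2 lower (Gsta1 and Gstcd, by -1.72 and -0.83), so the direction was not shared by the whole family. By the quasi-likelihood test of edgeR, 5 of the 36 members were higher past the study's thresholds, against 8.05% of all genes, and 2 were lower, against 7.38%. At an adjusted p under 0.05 there were 12 higher, against 25.8% of all genes, and 9 lower, against 24.2%. The labels give no source for the difference.

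Gstm1, the most abundant mu-class transferase here, had 174, 123, 95.3 and 166 CPM in the D libraries (control KD at 0 day and 1 day, then YBX3 KD at 0 day and 1 day) and 61.6 to 85.3 CPM in the other 9. The 2 sets did not overlap, and the log2 difference was 0.94 (SE 0.11, adjusted p = 0.000113). Its neighbours on chromosome 3, Gstm2 and Gstm5, were higher by 0.70 and 0.67 (adjusted p = 0.000142 and 0.000126), and reads of these similar genes could have been assigned to one another. Mgst2, a membrane transferase that can make leukotrienes, had 11.5 to 15.3 CPM in the D libraries and 3.97 to 8.16 CPM in the others, a log2 difference of 1.04 (SE 0.13, adjusted p = 0.000155). Gstt1, a theta-class transferase of low abundance, had 1.74 to 2.84 CPM against 0.741 to 1.38 CPM, a log2 difference of 1.13 (SE 0.17, adjusted p = 0.000368).

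The members below 0 past the thresholds were of other roles. Ggct had 1.18 to 2.56 CPM in the D libraries and 2.71 to 4.89 CPM in the others, a log2 difference of -0.99 (SE 0.17, adjusted p = 0.000663). Glrx5, the mitochondrial glutaredoxin of iron-sulfur cluster assembly, had 26.9 to 39.6 CPM against 41.2 to 60.8 CPM, a log2 difference of -0.65 (SE 0.12, adjusted p = 0.00092). In all, 7 members had every D library above every other library (Prdx2, Gstm1, Gstm2, Gstm5, Gstt1, Mgst2 and Mgst3), against 9.66% of all genes, and 4 had every D library below (Prdx3, Txn2, Glrx5 and Ggct), against 9.1%. The calls past the study's thresholds rest in part on single libraries. Without control KD replicate D at 0 day, 0 members passed these thresholds, where the count of all genes also fell, as given below. There were 4 without YBX3 KD replicate D at 1 day, and 4 without YBX3 KD replicate C at 0 day. The counts of all genes in these fits are not given here. The 7 log2 differences kept their direction and an adjusted p of at most 0.00784 whichever library was left out.

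The 4 libraries of replicate D also differed among themselves, in a way that crossed siRNA and day. Gpx4 had 435 CPM in control KD at 0 day and 429 CPM in YBX3 KD at 1 day, but 264 CPM in control KD at 1 day and 278 CPM in YBX3 KD at 0 day, and 225 to 285 CPM in the other 9 libraries. Mgst1 followed the same order, with 16.5 and 16.1 against 11.8 and 8.58 CPM. The first pair exceeded the second in 13 of the 36 members, against 25.7% of all genes, and lay below it in 12, against 27.6%. Among the 12 were Txnip, Ggct, Sod3 and Glrx5. For Gpx4 this crossing gave a YBX3 KD difference of -0.64 at 0 day and 0.70 at 1 day in replicate D, against -0.23 to 0.04 in the other 4 pairs. This order crosses the day as labelled. It would follow the day if the days of 1 siRNA were exchanged within replicate D, which was not tested, and the values of the day comparisons and those within a day take these labels as given. Ybx3 itself was low in both YBX3 KD libraries of replicate D and high in both of its control KD libraries.

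**Figure D5:**
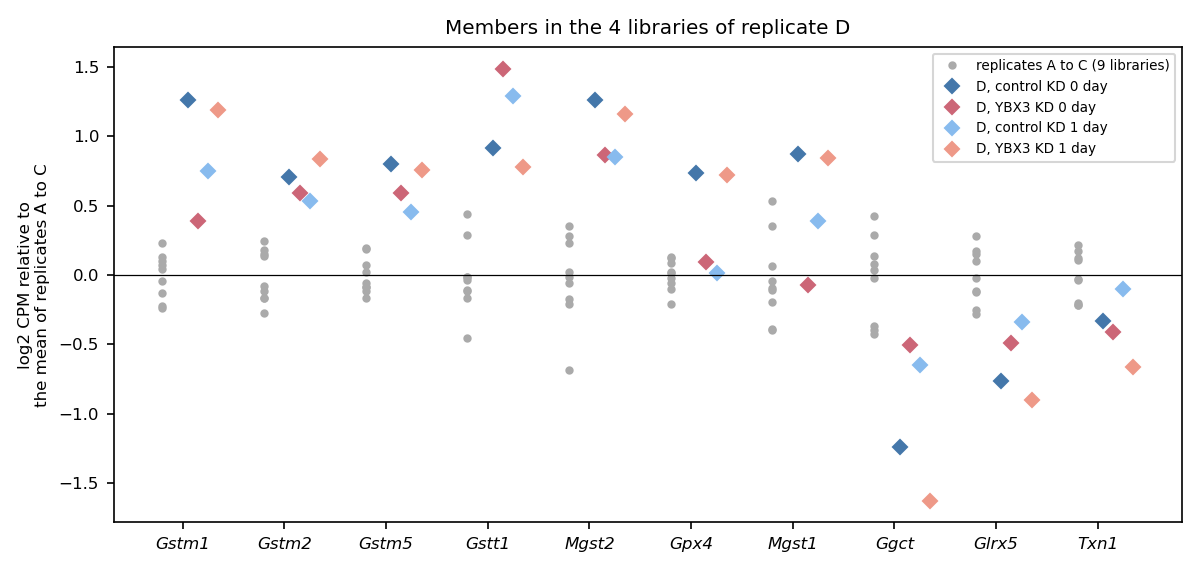
Log2 CPM of 10 members relative to the mean of replicates A to C, with the 9 libraries of A to C in grey and the 4 libraries of D coloured by group. For Gstm1, Gstm2, Gstm5, Gstt1 and Mgst2 the D libraries lie above all grey points, for Ggct and Glrx5 below them, and for Gpx4 and Mgst1 control KD at 0 day and YBX3 KD at 1 day lie above the other D libraries.

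Genes of the same pathways outside the list were examined for comparison, 45 by symbol, of which 37 were tested. In YBX3 KD over both days 2 of them were higher at an adjusted p under 0.05, against 1.29% of all genes, and 1 was lower, against 1.04%. Txnrd1, the cytosolic thioredoxin reductase that recharges Txn1, fell from 390 ± 73.6 (SD, n = 6) to 258 ± 52.2 CPM (n = 7), with a log2 fold change of -0.62 (SE 0.13, adjusted p = 0.0268), -0.66 at 0 day and -0.55 at 1 day. Ggt7, a gamma-glutamyltransferase family member, rose from 4.34 to 6.95 CPM, by 0.70 on the log2 scale (adjusted p = 0.0268), and Sesn2, a stress-induced sestrin, rose by 0.44 (adjusted p = 0.0331). With the letter as a term 4 were higher (Ggt7, Sesn2, Gsta2 and Msrb3), against 5.4% of all genes, and 4 lower (Txnrd1, Msrb1, Gclc and Nqo1), against 4.38%. The regulators did not pass, with log2 fold changes of -0.16 for Nfe2l2, -0.16 for Keap1, which holds NRF2 in check, and -0.04 for Bach1, a repressor at the same elements (adjusted p = 0.545, 0.192 and 0.905).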

How the data were processed

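RNAseq of 13 C2C12 libraries was used. The authors quantified reads with Salmon against the Gencode M30 canonical list of GRCm39 and deposited estimated counts per gene, which were whole numbers and not normalized. The step that made them gene-level and whole is not given in the sources used here.

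The counts went into edgeR 4.0.16 under R 4.3.3 (filterByExpr on the 4 groups, TMM, quasi-likelihood test, Benjamini-Hochberg adjustment over all 16848 genes kept), with DESeq2 1.42.0 and limma 3.58.1 as alternatives. The siRNA and day comparisons came from an additive fit, and contrasts within a day or siRNA and their difference from a fit with 1 coefficient per group. The fits were also run on simulated counts, with siRNA changes larger than those fitted for the members and no effect of the replicate letter. That run cannot show how the fits perform on changes and replicates like those here. Alternatives were other factors and filters, the letter as a block, 1 library or replicate D left out, and only the groups compared. Symbols, positions and lengths came from GENCODE vM39 by Ensembl identifier (54969 of 55642 matched). Counts behind 1 CPM numbered 32.4 to 71.9 per library, and counting floors cover counting error only.

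Deviations from the group means correlated in all 16 same-letter pairs from different groups (0.21 to 0.84, median 0.45), against a median of -0.26 in the other 46 pairs. Deviations sum to 0 within a group, so the other pairs fall when the same-letter pairs rise, and these medians are not independent. The letter from the labels was used as a block. The numbers in the titles, which disagree with the letters at 1 day, gave 10 of 16 pairs above 0.1. No libraries were duplicates (chi-square per degree of freedom of 19.1 or more).

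Members and lists were chosen with earlier results of these data known. Values by library were given for members past a threshold, the 3 smallest p in each direction of the siRNA and day comparisons, and the highest level per length in each role. The replicate D comparison, its members and the order among its libraries were chosen after their values were seen.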

Additional observations from a re-analysis of the deposited data

Results flagged for a closer look

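In the groups of 4 libraries, 72 sets of values over the 36 tested members were examined for 1 library far from the other 3, where chance flags about 1 in 20. There were 6 such sets (8.33%), and in 4 of them the far library was replicate D. The share over all genes was not computed, so the 6 sets cannot be read as particular to the members. The gap of the far library to its nearest neighbour, as a share of the group's range, is given for each.

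In control KD at 0 day, replicate D was highest for Gstm1 (174 CPM against 78.1 to 85.3, gap 0.926), Gstt1 (1.91 CPM against 0.934 to 1.00, gap 0.929) and Txnrd2 (15.7 CPM against 12.6 to 13.1, gap 0.833). In the same group replicate B was highest for Prdx4 (84.8 CPM against 65.3 to 67.9, gap 0.870). In YBX3 KD at 0 day, replicate D was highest for Gstz1 (39.4 CPM against 33.997 to 34.4, gap 0.927) and replicate B for Prdx1 (456 CPM against 372 to 387, gap 0.832). In no member did edgeR's test of the difference in YBX3 KD effect between the days reach an adjusted p under 0.05, with or without the letter as a term.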

How the results depend on the processing

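No member passed the study's thresholds in any of the 7 comparisons of siRNA and day, whichever alternative was used. The 21 log2 fold changes followed member by member kept their direction under every alternative run. At an adjusted p under 0.05, where the count over both days was 0, YBX3 KD gave 3 members with DESeq2, 6 with limma-voom, 5 with the letter as a replicate block, 6 with DESeq2 and the block, and 1 without replicate D. Leaving out 1 library gave 0 to 1, the 1 being Gsr without YBX3 KD replicate B at 1 day. Over all genes these counts were 394, and 1168, 3088, 1647, 2975 and 2155 in that order, 180 with no filter and 172 to 857 with 1 library left out (857 without control KD replicate D at 0 day). At 0 day the member counts were 2 with DESeq2, 3 with limma-voom, 1 with the block and 4 with DESeq2 and the block. They were 0 whichever library was left out. Over all genes there were 510 with DESeq2, 1782 with limma-voom, and 230 higher and 169 lower with the block. The counts of all genes for the other 0 day fits are not given here, so their members cannot be set against a share. For the day step the block changed no call, as in every other comparison not named, and the count was 1 with limma-voom, 2 without replicate D and 0 with 1 library left out. Replicate D against replicates A to C gave 11 members past the thresholds with no filter on low counts, against 7, and 0 to 7 with 1 library left out. The cause was not tested for any of these. Over all genes that comparison gave 2600, 4090 with DESeq2, 1558 with limma-voom, and 279 without control KD replicate D at 0 day. The count of all genes with no filter is not given here, so the 11 members cannot be set against a share of all genes. Relative log expression factors, the stricter count filter and fits on the 2 groups compared changed none of these counts by more than 1.5 times. With 2 control KD libraries at 1 day, small changes there could not be seen.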

Other observations

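By compartment, 5 of the 6 tested mitochondrial members (Prdx3, Txn2, Txnrd2, Glrx5 and Sod2, but not Glrx2) had estimates below 0 in YBX3 KD over both days. The median log2 fold change of the 6 was -0.08. Estimates were below 0 in 26 of the 36 tested members and in 8402 of all 16848 genes. The smallest adjusted p of these 5 in edgeR's test was 0.381 (Sod2). In replicate D 4 of these 6 were lower at an adjusted p under 0.05 and 2 higher (Txnrd2 and Glrx2), in a comparison where 24.2% of all genes were lower and 25.8% higher. The 3 tested members of the secretory pathway had log2 fold changes in YBX3 KD of -0.32 for Prdx4, -0.06 for Gpx8 and 0.21 for Sod3.

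The 39 members together made up 3788 to 4208 CPM in control KD and 3510 to 3878 CPM in YBX3 KD at 0 day, and 3994 to 4055 and 3724 to 4193 CPM at 1 day. The ranges overlapped on both days. Gstp1 was the least variable member across the 13 libraries (SD of 0.10 of log2 CPM) and Txnip the most (0.60).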
